A study of Mus musculus with 9 samples.

Results

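The potassium channel genes were taken as every gene on the array whose symbol begins with Kcn and whose transcript cluster carries a single symbol. They came to 65 of the 24259 genes tested, and each was read by 1 probe set. By role they held 16 pore-forming subunits of voltage-gated channels (Kv), 8 silent Kv subunits, 11 inward rectifiers (Kir), 12 two-pore-domain channels (K2P), 5 calcium-activated channels including the pH-gated relative Kcnu1, 12 auxiliary or regulatory proteins, and the non-coding RNA Kcnq1ot1. The RefSeq annotation of GRCm38.p6 lists 98 Kcn genes, of which 33 were not analysed here. Of these, 29 lie on chromosomes 1, 2 and 3, among them Kcnj10, Kcnj13 and Kcnk2.

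RNA of whole retinas from C57Bl/6x129SvJ mice aged 8 days had been hybridised to Affymetrix whole-transcript arrays, with 3 arrays for each of 3 genotypes. The mutants were the Rb/p107 double knockout (DKO below), with knockouts of the retinoblastoma gene Rb and its relative p107, and the Rb knockout (Rb KO). Wild-type mice (WT) were the controls. The series describes each array as a biological replicate. No Cre driver, deletion boundary or share of recombined cells is given in the sources used here, so the cells that lost the genes are not known from them. RNA came from the whole tissue, in which fewer cells of a type and less RNA per cell cannot be told apart.

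Potassium channels let potassium leave or enter a cell along its gradient and so set the resting potential and the return from excitation. Kv channels open on depolarisation, and silent Kv subunits form no channel alone but change the properties of the Kv subunits they join. Kir and K2P channels conduct near rest, calcium-activated channels open when intracellular calcium rises, and auxiliary subunits alter gating or trafficking. In the retina these channels shape the light responses of photoreceptors and the firing of inner neurons, and Muller glia use Kir channels to clear potassium. Rb and p107 restrain E2F transcription factors and with them entry into the cell cycle.

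Values are log2 intensities as deposited, after robust multi-array averaging (RMA). A reading was taken as above background when it exceeded the 95th percentile of that array's negative controls, which lay at 8.29 to 8.43 in DKO arrays, 8.32 to 8.50 in Rb KO arrays and 7.94 to 8.34 in WT arrays. The separation of positive from negative controls was measured as an area under the curve. It was 0.927 to 0.936 in DKO, 0.928 to 0.935 in Rb KO and 0.932 to 0.954 in WT. The ranges overlapped through WT replicate 3 (0.932) only, and WT replicates 1 (0.9445) and 2 (0.954) exceeded every mutant array. Control separation and genotype were thus partly confounded. WT replicate 2 had the best separation and the lowest percentile of the 9 arrays. DKO replicate 2 stood apart in another way. Xist read 5.47 there against 11.4 to 12.2 on the other 8 arrays, the Y-linked Eif2s3y read 9.12 there against at most 4.91, and 4 lens crystallin genes averaged 9.66 there against 6.49 to 7.84. Rb1 itself read 9.74, 10.001 and 9.85 in DKO, 9.85, 10.02 and 9.86 in Rb KO and 10.005, 10.19 and 10.46 in WT at its brightest probe set (log2 fold change -0.36, SE 0.117, adjusted p = 0.0423 in DKO and -0.31, SE 0.117, adjusted p = 0.0793 in Rb KO, limma). Its Rb KO readings overlapped those of WT. The rod marker list averaged above the background limit on all 9 arrays.

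Most potassium channel genes read low in this tissue. In all, 24 of the 65 (36.9%, against 38.1% of all genes) were above background on at least 1 array, 8 (12.3%, against 24.1%) were above it on all 9, and 41 were above it on none. The 41 read between 4.77 and 7.93. The number above background was 11, 11 and 13 in DKO, 9, 10 and 11 in Rb KO and 20, 23 and 14 in WT. Of all genes, 28.3%, 28.4% and 30.9% were above it in DKO, 27.2%, 29.9% and 29.7% in Rb KO and 32.1%, 36.4% and 28.5% in WT. With the highest of the 9 percentiles (8.50) applied to every array, the numbers were 10, 9 and 10 in DKO, 9, 9 and 10 in Rb KO and 13, 17 and 14 in WT. By class, 9 of 16 Kv subunits, 2 of 8 silent subunits, 1 of 11 Kir channels, 3 of 12 K2P channels, 1 of 5 calcium-activated channels and 8 of 12 auxiliary genes were above background on some array. Differences among readings that never did are described below as background readings, with no fold change.

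**Figure D1:**
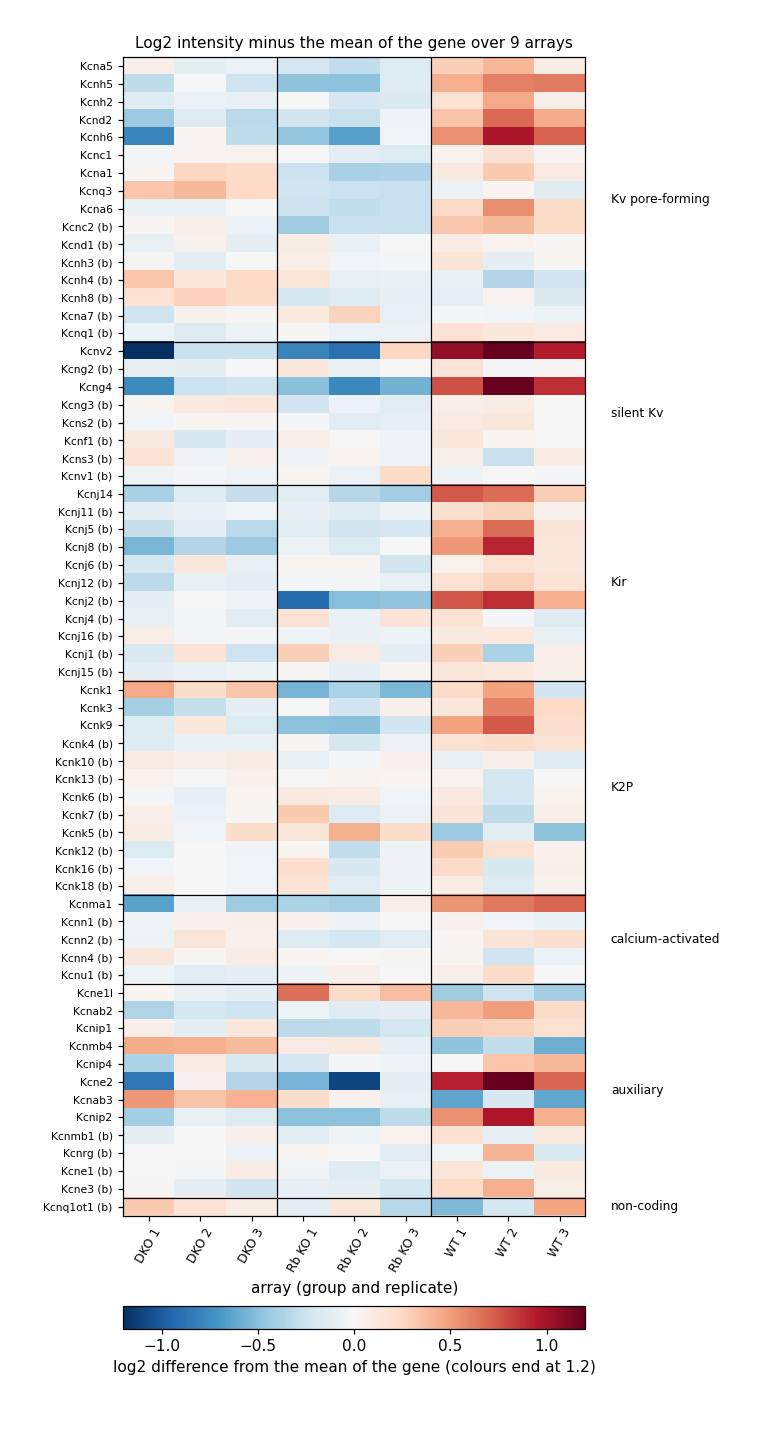
Log2 intensity of each of the 65 potassium channel genes (rows, grouped by class) on each of the 9 arrays (columns), minus the mean of the gene over all arrays; (b) marks the 41 genes above background on no array. Rows with strong colour are few, and in Kcnv2, Kcng4, Kcnh6 and Kcne2 the 3 WT arrays lie above all 6 mutant arrays.

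Where potassium channel genes differed from WT they were mostly lower, and largely in both mutants. In DKO against WT, 25 of the 65 were lower and 6 higher at an adjusted p under 0.05 (limma, Benjamini-Hochberg over all genes). Among all genes 17.1% were called lower and 12.2% higher. The median log2 fold change of the 65 genes was -0.10, against -0.06 for all genes. In Rb KO against WT, 26 were lower and 4 higher, where 14.3% of all genes were lower and 10.2% higher, and the median was -0.17 against -0.05 for all genes. Both comparisons share the WT arrays. Of the 65 genes, 22 were called lower in both and 3 higher in both. Another 3 were lower and 3 higher in DKO alone, 4 lower and 1 higher in Rb KO alone, and 29 were called in neither. Of the 24259 genes tested, 2710 were lower in both, 2074 higher in both and 16045 called in neither. In DKO alone 1428 of them were lower and 863 higher, and in Rb KO alone 725 were lower and 376 higher. An F test for any difference among the 3 groups called 34 of the 65 (52.3%, against 28.7% of all genes). Of the calls, 12 in DKO and 11 in Rb KO rest on background readings, with no array of either compared group above the limit. Among all genes, 2672 of 7113 calls in DKO and 2117 of 5923 in Rb KO did. Other calls rest on readings under the limit in 1 group or on some arrays, as given for single genes below. Without DKO replicate 2 the DKO counts were 20 lower and 6 higher. They were lowest, at 17 lower, without DKO replicate 3. With each array's control separation added to the model, 14 were lower and 6 higher in DKO. In Rb KO the lower calls of Kcnh2, Kcnj8, Kcnj11, Kcnj12, Kcnk1, Kcnk4 and Kcne3 were lost in that fit. No share of all genes is given for these alternative fits, so the 17.1% and 12.2% above are no background for their counts.

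**Figure D2:**
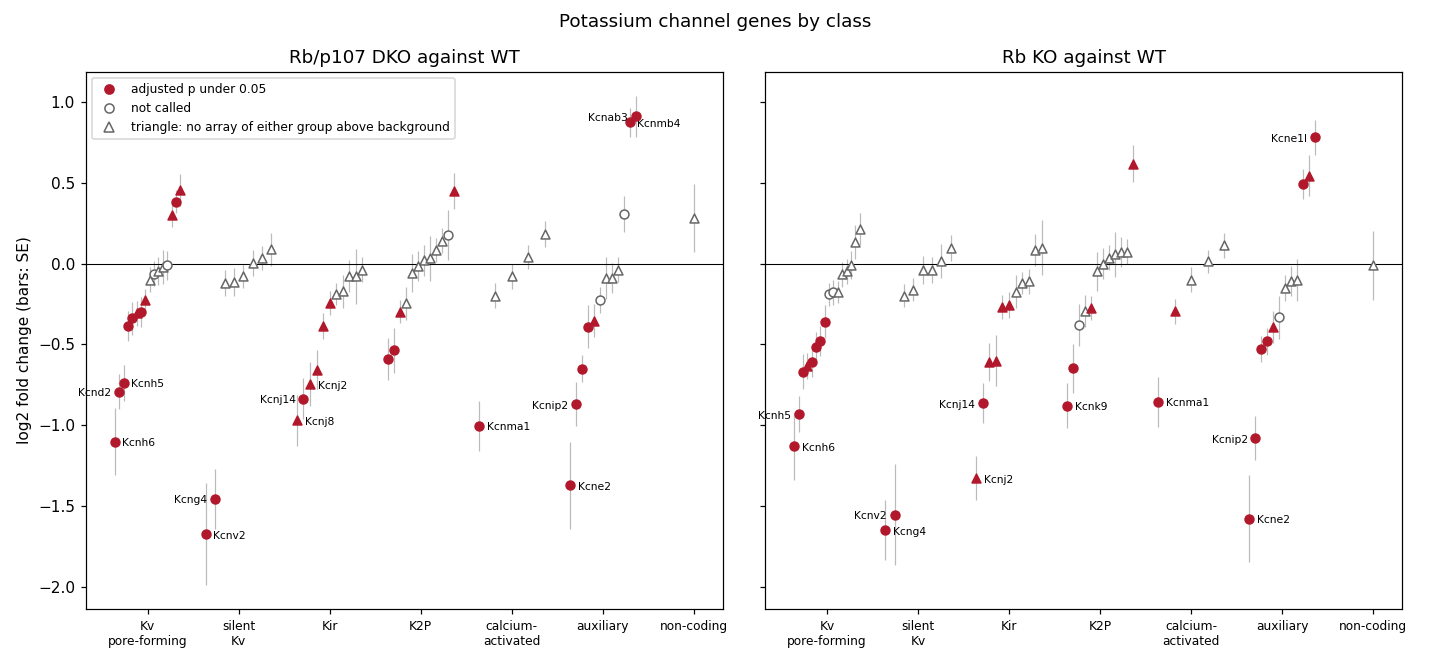
Log2 fold change (bars: SE) of each potassium channel gene in DKO against WT and in Rb KO against WT, by class. Filled points have an adjusted p under 0.05, triangles are genes with no array of either group above background, and names mark differences over 0.7 in size; the silent subunits Kcnv2 and Kcng4 and the auxiliary gene Kcne2 lie lowest.

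Of 8 silent Kv subunits, 2 (25%), Kcnv2 and Kcng4, were lower in each mutant, and 6 were called in no comparison. Among all genes 17.1% were lower in DKO and 14.3% in Rb KO. Kcnv2 encodes a subunit of rods and cones that takes part in a current that shapes their response to light, and its loss in humans causes a cone dystrophy with altered rod responses. Kcnv2 read 8.96, 9.96 and 9.95 in DKO, 9.43, 9.32 and 10.47 in Rb KO and 11.28, 11.44 and 11.17 in WT. All 6 mutant arrays were below all WT arrays, and the arrays of each mutant spread more widely (SD 0.57 in DKO and 0.64 in Rb KO) than those of WT (SD 0.14). The log2 fold change of Kcnv2 was -1.67 (SE 0.313, n = 3 per group, limma adjusted p = 0.00229) in DKO and -1.55 (SE 0.313, adjusted p = 0.00448) in Rb KO against WT, a 3.19-fold and a 2.94-fold lower level. The mutants did not differ detectably from each other in it (-0.12, SE 0.313, adjusted p = 0.956).

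Kcng4, which encodes another silent subunit, was chosen for naming after its values were seen. It read 6.66, 7.17 and 7.19 in DKO, 6.93, 6.65 and 6.86 in Rb KO and 8.19, 8.88 and 8.32 in WT. No mutant array was above background and 2 of 3 WT arrays were, so only bounds can be given: at least 1.06-fold lower in DKO (limma adjusted p = 2.1e-04) and at least 1.05-fold lower in Rb KO (adjusted p = 1.2e-04). In log2 these bounds (0.083 in DKO and 0.076 in Rb KO) were smaller than the SE of the fitted difference (0.186). The p-values test that difference between readings, not the bounds. Group means were 7.01 in DKO, 6.82 in Rb KO and 8.46 in WT. The brightest uncalled silent subunits were Kcng2, which averaged 7.42 in DKO, 7.51 in Rb KO and 7.55 in WT, and Kcng3, which averaged 7.51 in DKO, 7.28 in Rb KO and 7.48 in WT, both background readings.

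Photoreceptor markers were also lower in the mutants. All 7 measured rod markers were lower in both mutants, with a mean over the list of 10.10 to 10.97 in DKO arrays, 10.14 to 11.04 in Rb KO arrays and 11.95 to 12.05 in WT arrays. Cone markers were lower for 6 of 6 genes in DKO and 5 of 6 in Rb KO, with means of 7.58 to 8.31 in DKO, 7.59 to 8.21 in Rb KO and 9.62 to 9.66 in WT. Within the mutants, the rod mean was lowest in DKO replicate 1 and in Rb KO replicate 2, the arrays on which both genes were lowest. In Rb KO it was highest in replicate 3, as was Kcnv2, while Kcng4 was highest in replicate 1. The mean of 7 bipolar cell markers was also lowest in DKO replicate 1 (9.14) and Rb KO replicate 2 (9.25). This order of arrays was thus not particular to photoreceptor markers. The rod mean was above the background limit on every array, and the cone mean was above it on WT arrays only. The part of photoreceptor number in these differences was not tested.

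The pore-forming Kv class held 8 genes lower and 3 higher in DKO, and 8 lower in Rb KO, of 16 measured. In DKO 50% were lower and 18.8% higher, against 17.1% and 12.2% of all genes. In Rb KO 50% were lower, against 14.3% of all genes. The median log2 fold change of the class was -0.16 in DKO and -0.27 in Rb KO. Kcnh5, Kcna5 and Kcnh2 were above background on all 9 arrays, and Kcnh6 and Kcnd2 on all 3 arrays of WT only. Kcnh6, Kcnh5 and Kcnh2 belong to the ether-a-go-go family. Kcnd2 carries a fast A-type current in dendrites, and Kcna5 is a delayed rectifier.

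Kcnh6 read 7.62, 8.42 and 8.10 in DKO, 7.94, 7.75 and 8.37 in Rb KO and 8.95, 9.38 and 9.11 in WT. Neither mutant overlapped with WT. In each mutant 2 of 3 arrays were not above background, so the fold changes rest mostly on mutant readings under the limit. The log2 fold change of Kcnh6 was -1.10 (SE 0.207, limma adjusted p = 0.00241) in DKO and -1.13 (SE 0.207, adjusted p = 0.00264) in Rb KO. Kcnh5 read 9.11, 9.41 and 9.18 in DKO, 8.94, 8.93 and 9.26 in Rb KO and 9.85, 10.03 and 10.04 in WT, above background on all 9 arrays. It was lower in both mutants, with a log2 fold change of -0.74 (SE 0.113, limma adjusted p = 6.5e-04) in DKO and -0.93 (SE 0.113, adjusted p = 2.0e-04) in Rb KO.

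Kcnd2 read 8.17, 8.45 and 8.28 in DKO, 8.38, 8.34 and 8.55 in Rb KO and 8.94, 9.29 and 9.05 in WT, with 1 DKO array and 2 Rb KO arrays above background. All mutant arrays were below all WT arrays, with a log2 fold change of -0.79 (SE 0.108, limma adjusted p = 3.2e-04) in DKO and -0.67 (SE 0.108, adjusted p = 0.00123) in Rb KO. Dpp6, which encodes a partner of Kcnd2 channels, was lower in both mutants by less (-0.24, adjusted p = 0.0310 in DKO and -0.40, adjusted p = 0.00282 in Rb KO).

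Kcna5 and Kcnh2 differed from WT by less, and their calls were less stable. Kcna5 read 9.59, 9.41 and 9.46 in DKO, 9.32, 9.23 and 9.36 in Rb KO and 9.81, 9.93 and 9.62 in WT. The DKO and WT readings did not overlap, although the highest DKO array (9.59) lay just under the lowest WT array (9.62). Its log2 fold change was -0.30 (SE 0.0918, limma adjusted p = 0.0306) in DKO and -0.48 (SE 0.0918, adjusted p = 0.0034) in Rb KO, and the DKO call was lost (adjusted p = 0.0740 to 0.107) when WT replicate 1 or 2, or replicate 2 or 3 of DKO, was left out. That call was also lost with the control separation in the model (-0.16, adjusted p = 0.311) and with the Rb KO arrays left out of the fit (adjusted p = 0.0556). Kcnh2, the channel behind the repolarising cardiac current in humans, read 8.63, 8.71 and 8.69 in DKO, 8.78, 8.59 and 8.61 in Rb KO and 8.97, 9.24 and 8.84 in WT. Each mutant array was below each WT array, by a small margin. The log2 fold change of Kcnh2 was -0.34 (SE 0.102, adjusted p = 0.0285) in DKO, lost without any single DKO array or without WT replicate 1 or 2 (0.0510 to 0.0964), and -0.36 (SE 0.102, adjusted p = 0.0259) in Rb KO, lost without Rb KO replicate 2 or 3 (0.0943 and 0.0753). Both Kcnh2 calls were lost with the control separation in the model (-0.20, adjusted p = 0.288 in DKO and -0.24, adjusted p = 0.181 in Rb KO), and the Rb KO call with the DKO arrays left out of the fit (adjusted p = 0.0599).

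The other Kv subunits were at or under the background limit on most arrays, and their differences are given as readings. Kcna6, Kcna1 and Kcnq3 were chosen after their values were seen. Kcna6, a member of the Shaker family, read 7.32, 7.31 and 7.40 in DKO, 7.14, 7.10 and 7.13 in Rb KO and 7.63, 7.95 and 7.60 in WT, and both mutants were called lower (limma adjusted p = 0.0100 in DKO, 0.154 with the control separation in the model, and 9.2e-04 in Rb KO). Kcnc2, a fast-deactivating subunit of fast-spiking neurons, read 7.20, 7.25 and 7.12 in DKO, 6.76, 6.92 and 6.92 in Rb KO and 7.51, 7.58 and 7.41 in WT, all background readings, and was called lower in both mutants (adjusted p = 0.0135 in DKO, 0.0635 without DKO replicate 3 and 0.139 with the control separation in the model, and 2.4e-04 in Rb KO). Its relative Kcnc1, above background on 2 WT arrays only, averaged 8.25 in DKO, 8.14 in Rb KO and 8.31 in WT and was not called. The remaining uncalled Kv subunit named by level, Kcnd1, averaged 6.93 in DKO, 6.98 in Rb KO and 7.03 in WT.

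Promoter windows were available for 47 of the 65 genes (RefSeq, GRCm38.p6, 64 windows of 300 bases that span each annotated start, most of it upstream). Kcnv2 had no window and was not searched. TAATCC, the core word bound by the photoreceptor factor Crx, was searched on both strands and was in 2 of the 64 windows (3.12%), against 7.06% of 32851 windows in all. GGCGGGA, a word found in many E2F sites that also contains the GC-box word GGCGGG, was in 4 of the 64 (6.25%), against 11.3% of all windows. Among the genes with a match, Kcnrg (TAATCC) and Kcns3 (GGCGGGA) were called in neither mutant. The 3 windows printed belong to genes called against WT in both mutants and hold one of the words, in capitals on whichever strand it was read. Kcnab2, also called in both, holds GGCGGGA in 1 of its 3 windows, which is not printed. They are Kcng4, on the minus strand at chr8:119635631-119635930, with TAATCC from -5 to 1 counted from the start, Kcnma1, on the minus strand at chr14:24004156-24004455, with GGCGGGA from 32 to 38, and Kcnmb4, on the minus strand at chr10:116473474-116473773, with GGCGGGA reversed from -76 to -70 and forward from -44 to -38. A match is a description of these letters, not a site.
Kcng4: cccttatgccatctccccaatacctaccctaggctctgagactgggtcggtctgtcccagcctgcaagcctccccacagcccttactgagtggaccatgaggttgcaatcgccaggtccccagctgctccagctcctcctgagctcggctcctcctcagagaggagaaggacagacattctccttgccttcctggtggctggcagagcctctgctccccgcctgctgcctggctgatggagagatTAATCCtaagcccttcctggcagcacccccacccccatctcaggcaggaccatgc
Kcnma1: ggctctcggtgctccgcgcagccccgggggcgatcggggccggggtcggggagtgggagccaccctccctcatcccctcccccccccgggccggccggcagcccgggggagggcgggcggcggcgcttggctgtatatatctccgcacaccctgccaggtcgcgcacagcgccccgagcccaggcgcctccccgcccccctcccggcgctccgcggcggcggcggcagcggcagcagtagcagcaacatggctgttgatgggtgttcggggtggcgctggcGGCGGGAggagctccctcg
Kcnmb4: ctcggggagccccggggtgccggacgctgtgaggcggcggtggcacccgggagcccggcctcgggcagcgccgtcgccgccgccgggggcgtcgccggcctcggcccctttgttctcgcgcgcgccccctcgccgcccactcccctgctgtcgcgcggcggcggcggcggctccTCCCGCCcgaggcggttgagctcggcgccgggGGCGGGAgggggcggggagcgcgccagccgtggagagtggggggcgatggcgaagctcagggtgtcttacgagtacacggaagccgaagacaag

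Kcnma1, the pore of the large-conductance BK channel that opens on calcium and voltage together, was the one calcium-activated channel above background. Kcnma1 read 9.16, 9.72 and 9.37 in DKO, 9.42, 9.40 and 9.88 in Rb KO and 10.33, 10.43 and 10.50 in WT. The mutant arrays were all below the WT arrays, by a log2 fold change of -1.004 (SE 0.155, limma adjusted p = 6.8e-04) in DKO and -0.86 (SE 0.155, adjusted p = 0.00240) in Rb KO. In the retina BK channels are found in bipolar and amacrine cells. Bipolar markers were lower for 5 of 7 genes in DKO and 6 of 7 in Rb KO, where 1 was higher, with list means of 9.14 to 9.84 in DKO arrays, 9.25 to 10.02 in Rb KO arrays and 10.56 to 10.77 in WT arrays. DKO replicate 1 was the lowest DKO array both for Kcnma1 and for that list. It was also the lowest for the rod and cone means and for 62.2% of all genes called lower in both mutants. Of 4 measured amacrine markers 1 was higher and 2 were lower in each mutant, with list means of 9.53 to 9.64 in DKO arrays, 9.30 to 9.41 in Rb KO arrays and 9.67 to 9.85 in WT arrays. The part of bipolar and amacrine cell number in the Kcnma1 difference was not tested.

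The BK auxiliary gene Kcnmb4 went the other way. Its product, the beta subunit of BK channels in neurons, slows their activation. Kcnmb4 read 8.86, 8.84 and 8.79 in DKO, 8.51, 8.52 and 8.32 in Rb KO and 7.93, 8.12 and 7.82 in WT, above background on 3 DKO arrays, 2 Rb KO arrays and 1 WT array. The 3 groups did not overlap, with DKO above Rb KO and Rb KO above WT. The log2 fold change was 0.87 (SE 0.0916, limma adjusted p = 5.8e-05) in DKO and 0.49 (SE 0.0916, adjusted p = 0.00283) in Rb KO against WT. DKO against Rb KO missed the threshold (0.38, SE 0.0916, adjusted p = 0.0591) and passed it in 6 of the alternative settings, among them without WT replicate 2 (0.0266). The small-conductance channels were background readings throughout. Kcnn2 averaged 7.68 in DKO, 7.47 in Rb KO and 7.76 in WT and was called lower in Rb KO (adjusted p = 0.0189), which was lost without Rb KO replicate 2 or WT replicate 3. Kcnn1 averaged 7.90 in DKO, 7.87 in Rb KO and 7.85 in WT, and Kcnn4, a channel of immune and red cells, averaged 6.68 in DKO, 6.61 in Rb KO and 6.50 in WT; neither was called.

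The auxiliary class held calls in both directions, with 2 of 12 genes higher and 5 lower in DKO and 3 higher and 5 lower in Rb KO. Higher calls were 16.7% in DKO and 25% in Rb KO, against 12.2% and 10.2% of all genes. Lower calls were 41.7% in each mutant, against 17.1% and 14.3% of all genes. Kcnab2 and Kcnab3 encode cytoplasmic beta subunits of Shaker-type Kv channels, and they differed in opposite directions. Kcnab2 read 8.44, 8.59 and 8.56 in DKO, 8.75, 8.66 and 8.70 in Rb KO and 9.20, 9.31 and 9.04 in WT, and was lower by a log2 fold change of -0.65 (SE 0.0843, limma adjusted p = 2.3e-04) in DKO and -0.48 (SE 0.0843, adjusted p = 0.00201) in Rb KO. Kcnab3, chosen after its values were seen, read 8.57, 8.39 and 8.46 in DKO, 8.26, 8.10 and 7.96 in Rb KO and 7.41, 7.86 and 7.43 in WT. Only 2 DKO arrays were above background. By its bound, Kcnab3 was at least 1.25-fold higher in DKO than in WT (adjusted p = 3.3e-04). That bound uses the limits of the WT arrays (7.94 to 8.34), while the DKO mean of 8.47 lay close to the DKO limits (8.29 to 8.43). The Kcnab3 call in Rb KO (adjusted p = 0.00923) compares background readings.

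The Kv channel interacting proteins, calcium sensors that bind Kcnd subunits, were lower where they differed. Kcnip2 read 7.45, 7.77 and 7.69 in DKO, 7.36, 7.36 and 7.55 in Rb KO and 8.40, 8.82 and 8.28 in WT, with no mutant array above background, at least 1.09-fold lower in DKO (limma adjusted p = 7.7e-04) and at least 1.08-fold lower in Rb KO (adjusted p = 2.6e-04). In log2 the Kcnip2 bounds (0.123 in DKO and 0.116 in Rb KO) were smaller than the SE of the fitted difference (0.136). Kcnip1 read 8.52, 8.35 and 8.58 in DKO, 8.14, 8.15 and 8.24 in Rb KO and 8.75, 8.73 and 8.64 in WT. It was at least 1.25-fold lower in Rb KO than in WT (adjusted p = 8.3e-04), and DKO missed the threshold (-0.22, SE 0.0803, adjusted p = 0.0594). Kcnip4, named after its values were seen, averaged 8.06 in DKO, 8.12 in Rb KO and 8.45 in WT, and its call in DKO (adjusted p = 0.0464) was lost when any of 7 single arrays was left out, up to 0.181 without DKO replicate 1; without DKO replicate 2 or WT replicate 1 it was kept. It was 0.131 with the control separation in the model.

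The Kcne genes encode single-span subunits of Kv channels. Kcne2, also named after its values were seen, read 7.27, 8.18 and 7.78 in DKO, 7.57, 7.03 and 8.01 in Rb KO and 9.06, 9.45 and 8.83 in WT. It was above background on all 3 WT arrays and on no mutant array, which held for 2 of the 65 genes (3.08%, against 0.849% of all genes), Kcne2 and Kcnip4. Kcne2 was at least 1.67-fold lower in DKO (limma adjusted p = 0.00304) and at least 1.66-fold lower in Rb KO (adjusted p = 0.00169), from means of 7.74 in DKO, 7.54 in Rb KO and 9.11 in WT. The DKO call of Kcne2 was lost with the control separation in the model (adjusted p = 0.0561). Kcne1l, on the X chromosome, read 9.95, 9.85 and 9.81 in DKO, 10.59, 10.14 and 10.30 in Rb KO and 9.496, 9.67 and 9.52 in WT. All mutant arrays were above the WT arrays, by a log2 fold change of 0.78 (SE 0.109, adjusted p = 4.9e-04) in Rb KO and, short of the threshold, 0.31 (SE 0.109, adjusted p = 0.0577) in DKO, which passed it (0.0192 to 0.0401) when Rb KO replicate 1 or 2, or replicate 2 of WT, was left out. DKO replicate 2, the array with low Xist, read 9.85, between the other 2 DKO arrays. The brightest uncalled auxiliary genes were Kcnmb1, the BK subunit of smooth muscle, at 6.30 in DKO, 6.28 in Rb KO and 6.39 in WT, and Kcnrg at 5.81 in DKO, 5.80 in Rb KO and 5.90 in WT.

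**Figure D3:**
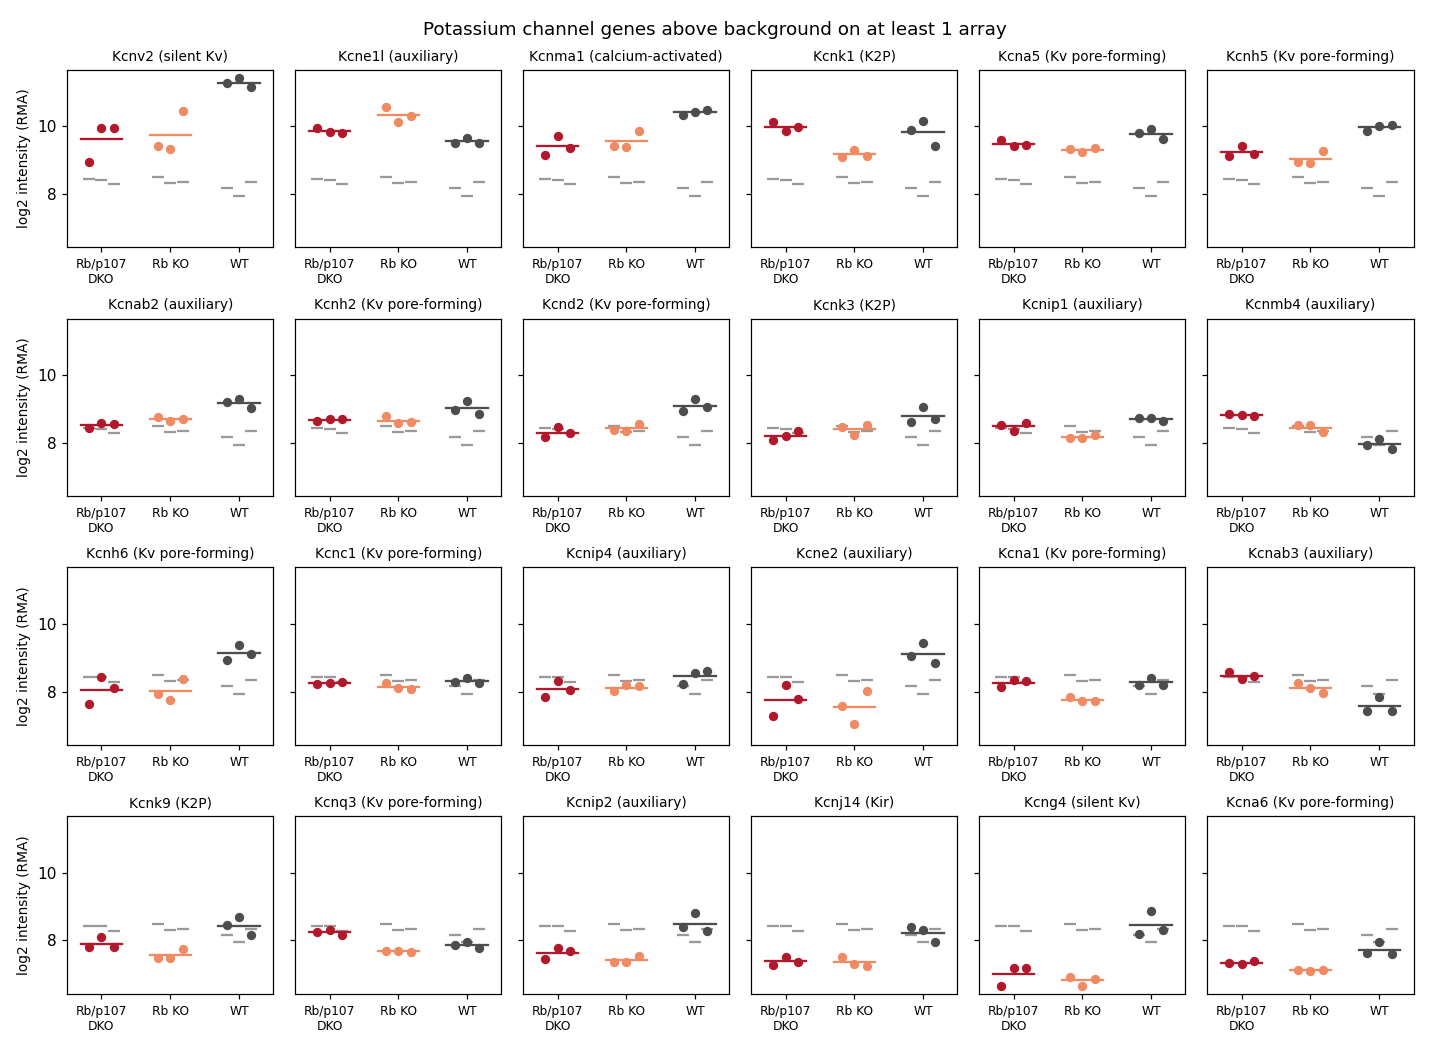
Log2 intensity on each array (points), with group means (coloured bars), of the 24 potassium channel genes above background on at least 1 array, in order of mean level; grey ticks are the 95th percentile of the negative controls of each array. Kcnv2, Kcnma1 and Kcnh5 lie above the ticks in all 3 groups and are lower in both mutants, while Kcng4, Kcnip2 and Kcne2 lie above the ticks in WT arrays only.

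The K2P channels, which carry background potassium current, held 1 higher and 3 lower gene of 12 in each mutant, with medians of 0.00 in DKO and -0.03 in Rb KO. These were 8.33% higher and 25% lower, against 12.2% and 17.1% of all genes in DKO and 10.2% and 14.3% in Rb KO. Kcnk1, which encodes a weakly conducting member of the class, read 10.12, 9.88 and 9.995 in DKO, 9.10, 9.29 and 9.13 in Rb KO and 9.89, 10.15 and 9.43 in WT. The Rb KO arrays were below both other groups, and the DKO arrays lay within the WT range. Its log2 fold change was 0.18 (SE 0.153, limma adjusted p = 0.433) in DKO and -0.65 (SE 0.153, adjusted p = 0.0105) in Rb KO, each against WT. WT replicate 3 was the lowest WT array, and without it the DKO value was -0.02 (adjusted p = 0.921). With the control separation in the model the DKO value was 0.54 and past the threshold (adjusted p = 0.0147), and the Rb KO value was -0.34 and the call was lost (adjusted p = 0.0694).

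The acid-sensitive channels Kcnk3 and Kcnk9 were lower. Kcnk3 read 8.07, 8.19 and 8.35 in DKO, 8.46, 8.24 and 8.53 in Rb KO and 8.60, 9.07 and 8.70 in WT, with 1 array of each mutant above background, and fell by 0.59 on the log2 scale in DKO (SE 0.129, limma adjusted p = 0.00566). That call was lost with the control separation in the model (log2 fold change -0.41, adjusted p = 0.0987). In Rb KO its log2 fold change was -0.38 (SE 0.129, adjusted p = 0.0536, and 0.0352 without WT replicate 1). Kcnk9, chosen after its values were seen, read 7.81, 8.10 and 7.81 in DKO, 7.48, 7.47 and 7.74 in Rb KO and 8.45, 8.71 and 8.17 in WT. With no mutant array above background it was at least 1.04-fold lower in DKO (adjusted p = 0.0140, over 0.05 without DKO replicate 1 or 3 and 0.206 with the control separation in the model) and in Rb KO (adjusted p = 0.00106). In log2 the Kcnk9 bounds (0.062 in DKO and 0.055 in Rb KO) were smaller than the SE of the fitted difference (0.139). The higher call, Kcnk5, also named after its values were seen, encodes a channel that opens in alkaline conditions. It was a background reading on every array, from 6.65 to 6.89 in DKO, 6.82 to 7.11 in Rb KO and 6.19 to 6.53 in WT (adjusted p = 0.0124 in DKO, 0.0543 without DKO replicate 3, and 0.00257 in Rb KO). Kcnk10 and Kcnk13, the brightest uncalled K2P genes, averaged 7.59 and 7.26 in DKO, 7.49 and 7.25 in Rb KO and 7.45 and 7.18 in WT.

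The Kir channels, which pass current inward more easily than outward, had 6 of 11 genes lower in each mutant (54.5%). Of all genes 17.1% were lower in DKO and 14.3% in Rb KO. Among these 6 Kir genes, 5 were background readings. Kcnj14, reported in photoreceptors and inner retina, was the one Kir gene above background, on 2 WT arrays. It read 7.27, 7.51 and 7.37 in DKO, 7.52, 7.31 and 7.24 in Rb KO and 8.39, 8.32 and 7.94 in WT, without overlap (limma adjusted p = 5.9e-04 in DKO and 6.4e-04 in Rb KO). Kcnj2, a strong rectifier of Muller glia, read 6.33, 6.43 and 6.39 in DKO, 5.51, 5.93 and 5.97 in Rb KO and 7.19, 7.32 and 6.88 in WT (adjusted p = 0.00200 in DKO and 6.7e-05 in Rb KO). Of 6 Muller glia markers 3 were lower in each mutant, with list means of 9.99 to 10.14 in DKO, 9.997 to 10.10 in Rb KO and 10.30 to 10.50 in WT, and their part in these readings was not tested.

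Kcnj8 forms the potassium channel that senses ATP in pericytes, together with the product of Abcc9. Kcnj8 read 6.19, 6.38 and 6.30 in DKO, 6.66, 6.57 and 6.74 in Rb KO and 7.25, 7.65 and 6.87 in WT, background readings that were called lower in DKO (limma adjusted p = 9.5e-04) and in Rb KO (0.0179, over 0.05 without Rb KO replicate 1 or 2, and 0.148 with the control separation in the model). Abcc9 read 6.68, 7.25 and 7.01 in DKO, 7.26, 7.35 and 7.44 in Rb KO and 7.94, 8.35 and 7.87 in WT (adjusted p = 4.1e-04 in DKO and 0.00654 in Rb KO). Pericyte markers, a list that includes Abcc9, were lower for 3 of 4 genes in each mutant and endothelial markers for 5 of 5 genes in DKO and 4 of 5 in Rb KO. Pericyte list means were 6.94 to 7.24 in DKO, 7.26 to 7.29 in Rb KO and 7.63 to 7.88 in WT, and their part was not tested. All of these means lay under the background limit, and no pericyte marker was above it on all 3 arrays of any group. The brightest uncalled Kir genes were Kcnj6, which averaged 6.60 in DKO, 6.59 in Rb KO and 6.77 in WT, and Kcnj4, which averaged 5.15 in DKO, 5.31 in Rb KO and 5.23 in WT. The non-coding Kcnq1ot1, which silences its imprinted neighbours, averaged 6.68 in DKO, 6.39 in Rb KO and 6.40 in WT, with WT arrays from 5.96 to 6.96, and was not called.

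Kcnj5, Kcnj11, Kcnj12, Kcnk4, Kcne3, Kcnq1 and Kcnh4, named after their values were seen, were background readings on every array. Of these, Kcnj5, Kcnj11, Kcnj12, Kcnk4 and Kcne3 were called lower in both mutants, Kcnq1 lower in DKO and Kcnh4 higher in DKO. Calls of Kcnj11, Kcnj12, Kcnk4, Kcne3 and Kcnq1 were lost in at least 1 mutant when single arrays were left out. Of the 29 members called in neither mutant against WT, Kcnc1 was the one above background on any array.

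The mutants differed from each other in few potassium channel genes. In DKO against Rb KO, 4 of 65 were higher and 1 lower, where 1.34% of all genes were higher and 1.21% lower (2.54% in either direction), and the median was 0.03 against -0.00 for all genes. The 4 higher genes were Kcnk1, Kcnq3, Kcna1 and Kcnh8, and the lower one was Kcne1l. Kcnk1 had the largest difference of the 65, 0.82 (SE 0.153, limma adjusted p = 0.0191), from the array values given above, in which all DKO arrays exceeded all Rb KO arrays. The Kcnk1 call was lost when replicate 1 or 3 of either mutant was left out (adjusted p = 0.0750 to 0.0884), with the difference at 0.76 to 0.83.

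Kcna1, a Shaker-family subunit that limits repetitive firing, read 8.13, 8.35 and 8.32 in DKO, 7.84, 7.71 and 7.72 in Rb KO and 8.21, 8.41 and 8.20 in WT. The DKO readings overlapped those of WT and the Rb KO readings were below both. With no Rb KO array above background and 1 DKO array just above it, the call between mutants (limma adjusted p = 0.0147, and 0.0511 to 0.0823 when replicate 2 or 3 of either mutant was left out) has no fold change, as does the call of Rb KO against WT (adjusted p = 0.00186). Kcnq3, a subunit of the M-current that damps excitability, read 8.26, 8.32 and 8.17 in DKO, 7.70, 7.68 and 7.67 in Rb KO and 7.86, 7.96 and 7.79 in WT. DKO readings were above both other groups. No array of either mutant was above its own background limit, and 1 WT array was, so no fold change is given. The calls of DKO against Rb KO (adjusted p = 0.00247) and against WT (0.00267) were kept in all alternative settings that tested them.

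Kcnh8, an ether-a-go-go-like channel described in photoreceptors, read 6.81, 6.91 and 6.84 in DKO, 6.45, 6.47 and 6.52 in Rb KO and 6.53, 6.66 and 6.46 in WT. These background readings were higher in DKO than in Rb KO (limma adjusted p = 0.0294), which was lost without any single mutant array (0.0715 to 0.123), and than in WT (0.0112). Kcne1l was lower in DKO than in Rb KO by 0.48 on the log2 scale (log2 difference -0.48, SE 0.109, adjusted p = 0.0494). That call was lost in 11 alternative settings, among them without any one DKO array, Rb KO replicate 1 or 3, or WT replicate 1 or 3. Leaving out single arrays gave 1 to 7 higher genes between the mutants: 1 without Rb KO replicate 3 or DKO replicate 3, 2 without any other mutant array including DKO replicate 2, and 7 without WT replicate 2.

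**Figure D4:**
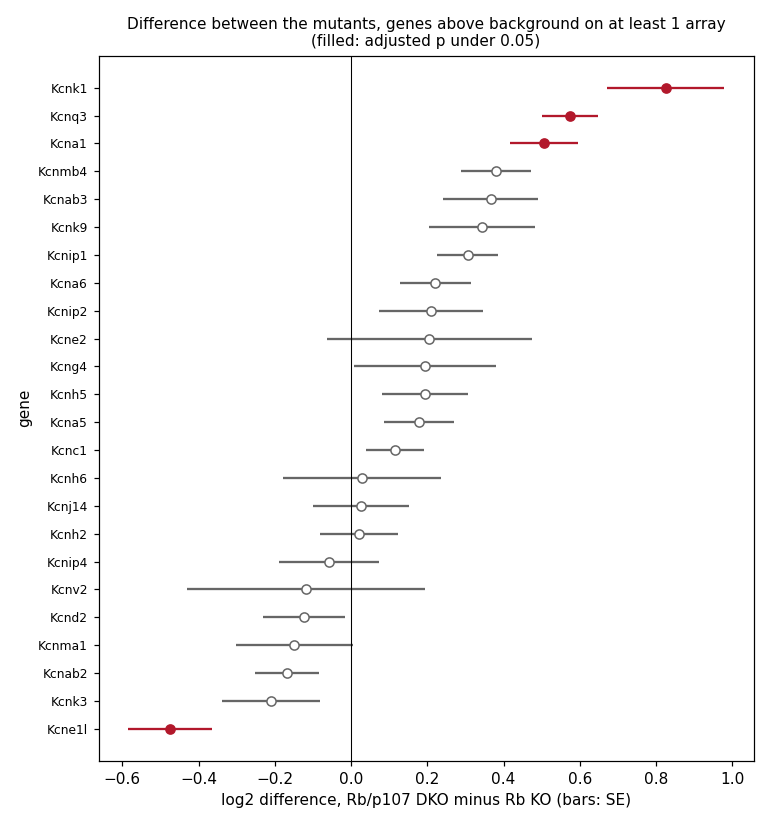
Log2 difference between DKO and Rb KO (x axis, DKO minus Rb KO, bars: SE) for the 24 potassium channel genes above background on at least 1 array. Kcnk1, Kcnq3 and Kcna1 (filled, right) and Kcne1l (filled, left) have an adjusted p under 0.05, and the other 20 do not; Kcnq3 and Kcna1 are above background on at most 1 of the 6 mutant arrays.

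Genes that work beside potassium channels were counted from fixed lists. Among all genes, 17.1% were lower and 12.2% higher in DKO, and 14.3% lower and 10.2% higher in Rb KO. Of 5 measured channel partners, 2 were lower in DKO and 3 in Rb KO. Abcc8, the ATP-sensitive partner of Kcnj11, was called in Rb KO (limma adjusted p = 0.00214) and not in DKO (0.219), from means of 8.08 in DKO, 7.71 in Rb KO and 8.25 in WT. Of 4 measured pacemaker and cyclic nucleotide-gated channels, 2 were lower in both mutants. They were the rod channel genes Cnga1 and Cngb1, which averaged 9.63 and 8.98 in DKO, 9.92 and 9.28 in Rb KO and 11.22 and 10.59 in WT (log2 fold changes of -1.59 and -1.61 in DKO, adjusted p = 6.4e-04 and 2.5e-04). Hcn4 averaged 9.004 in DKO, 8.98 in Rb KO and 8.75 in WT and was not called.

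Of 8 measured genes of potassium transport, 5 were lower and 2 higher in DKO, and 4 lower in Rb KO. Slc24a1, the potassium-dependent sodium-calcium exchanger of rods, read 8.21, 9.79 and 9.31 in DKO, 8.04, 7.67 and 8.89 in Rb KO and 11.24, 11.59 and 11.41 in WT. Its log2 fold change was -2.31 (SE 0.371, limma adjusted p = 8.9e-04) in DKO and -3.21 (SE 0.371, adjusted p = 1.5e-04) in Rb KO. Slc12a2, a sodium-potassium-chloride cotransporter, averaged 9.04 in DKO, 9.14 in Rb KO and 9.62 in WT (adjusted p = 7.3e-04 and 0.00292). Of 13 measured sodium and calcium channel genes, 5 were lower and 1 higher in DKO, and 4 lower and 1 higher in Rb KO. Cacna1f, the calcium channel of photoreceptor terminals, averaged 8.30 in DKO, 8.60 in Rb KO and 9.80 in WT (adjusted p = 7.2e-04 and 0.00359).

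Of the 65 genes, 22 were called lower in both mutants, and of the 24259 genes tested 2710 were. Within each group, the arrays most often lowest and highest were the same in both sets. For the 22, the lowest DKO array was replicate 1 in 16 genes (72.7%, against 62.2% of the 2710). The highest was replicate 2 in 17 (77.3%, against 49.6%). Rb KO replicate 2 was the lowest Rb KO array in 16 (72.7%, against 48.1%) and replicate 3 the highest in 13 (59.1%, against 64.5%). Among WT arrays replicate 2 was the highest in 19 (86.4%, against 61.3%), the array with the best control separation, and replicate 3, the WT array with the poorest, was the lowest in 16 (72.7%, against 56.5%). Cycling and progenitor markers were higher for 4 of 4 genes in DKO and 3 of 4 in Rb KO, with list means of 10.29 to 10.59 in DKO, 9.80 to 10.27 in Rb KO and 6.68 to 6.93 in WT. All 6 measured ganglion cell markers were lower in both mutants, with list means of 9.03 to 9.40 in DKO, 9.09 to 9.61 in Rb KO and 9.87 to 10.11 in WT. Pigment epithelium markers were lower for 4 of 5 genes in each mutant, with list means of 6.25 to 6.47 in DKO, 6.39 to 6.67 in Rb KO and 7.56 to 7.93 in WT. All of these pigment epithelium means lay under the background limit. Microglia markers were higher for 3 of 5 genes in each mutant, with list means of 8.11 to 8.44 in DKO, 7.77 to 8.32 in Rb KO and 7.38 to 7.51 in WT. The part of these array and marker differences in the counts of lower genes was not tested, apart from the fit with the control separation in the model given above.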

How the data were processed

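Retinal RNA of 9 samples, 3 per genotype, had been hybridised to Affymetrix arrays after cDNA amplification and biotin labelling, per the labels' protocols, which required an RNA integrity score above 8. The deposited log2 intensities were summarised by RMA, per the submitters' processing notes. Neither a version nor an annotation build is given in the sources used here. The number of arrays limits precision. Of 52917 transcript clusters, 24646 had 1 gene symbol in the platform annotation and 1795 had several. The brightest probe set stood for a gene (24259 genes, 658 symbols updated through GRCm38.p6). The 2 Kcn clusters with several symbols (Kcnmb4os1 and Kcnmb4os2) were left out.

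Groups were compared with limma 3.58.1 in R 4.3.3 (lmFit and eBayes on group means of all 9 arrays, 6 residual and 4.69 prior degrees of freedom, no dim-gene filter), adjusted by Benjamini-Hochberg over all genes and called under 0.05. The fit was tested on simulated data. SE is that of a log2 fold change. An "at least" bound is the mean of the brighter group minus the mean, over arrays of the dimmer group, of the larger of the background percentile and the reading. It is a point value without an interval, and an adjusted p beside it tests the fitted difference of readings. Named genes were the called members above background on all 3 arrays of a group, with the lowest F test p in each class, those called between mutants, the 2 brightest uncalled members of each class and members with a known retinal cell type; from each list of partners up to 4 with the lowest F test p could be named. Others are said to be chosen after their values were seen. The members, lists, markers and rules were chosen with earlier results of these data known. The labels do not say that a replicate number marks a shared litter or day, so the main fit had no replicate block. Deviations of same-numbered arrays correlated at -0.162 to 0.145 and those of different numbers at -0.330 to 0.246. These overlapping ranges cannot exclude a shared litter or day. Figures were drawn with matplotlib 3.10.9 in Python 3.11.15.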

Additional observations from a re-analysis of the deposited data

How the results depend on the processing

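Of 66 calls of single potassium channel genes, 40 held under every alternative that tested them, 26 were lost under at least 1 and 0 changed direction; 20 were lost with each array's control separation in the model and 4 with the replicate block. Testing only genes above background on 3 or more arrays left fewer members, so its counts and medians are no support: in DKO 2 higher, 12 lower and a median of -0.49, in Rb KO 2 higher, 14 lower and -0.52, and 16 by the F test. The covariate gave 14 lower in DKO, 22 by the F test, and 7 higher and 0 lower between the mutants. No share of all genes is given for the alternative fits. Renewed quantile normalization and the replicate block each gave 0 lower between the mutants. With the replicate block the other counts were 6 higher and 24 lower in DKO, 4 and 26 in Rb KO, 3 higher between the mutants and 34 by the F test. Leaving out single arrays gave 5 to 7 higher and 17 to 25 lower genes in DKO (median -0.144 to -0.0831), 4 higher and 20 to 26 lower in Rb KO (median -0.20 to -0.16), 1 to 7 higher and 0 to 1 lower between the mutants (median 0.0033 to 0.0607) and 31 to 34 by the F test. Differences that were not called changed sign for Kcna1 in DKO against WT (0.0654 with the covariate; -0.0529 to 0.0597 with single arrays left out, positive without WT replicate 2 or DKO replicate 1), Kcnk1 in DKO against WT (-0.0189 without WT replicate 3, up to 0.340 without WT replicate 2) and Kcnh8 in Rb KO against WT (0.0125 with the covariate). The cause of these changes was not tested. Taking the mean of a gene's probe sets leaves each member's values as they are, since each has 1 probe set. Signal limits the Kir class most, with 10 of 11 genes above background on no array. The common background limit was added after seeing the data.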
